A study of Mus musculus with 8 samples.

Results

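The alpha joining segments of the mouse T cell receptor (Traj) were counted in RNA of stimulated spleen and lymph node cells. They were taken as every Ensembl identifier whose GENCODE M21 symbol begins with Traj, which gave 60 features of the 52636 in the count table, 51 annotated as joining genes and 9 as joining pseudogenes. Immune cells came from female and male TCR1640 mice and from female and male SJL/J wild-type mice (wild-type label WT), aged 35 to 55 days and not yet symptomatic. The TCR1640 line has SJL/J as its background strain and a transgenic receptor that recognises a myelin antigen, and its mice are known for autoimmune encephalomyelitis that arises without immunization. All cells were cultured for 4 days with IL23 (20 ng/ml), TGF-β (4 ng/ml), IL6 (20 ng/ml), IL12 (3 ng/ml) and anti-CD3 (1 μg/ml), a TH1/TH17 condition, so no group was left without stimulation. Each of the 4 groups has 2 columns, which differed by little more than sampling noise. They were added together, which leaves n = 1 for each group, and nothing in the labels says whether mice were pooled. The series' design text names the difference between males and females as its question.

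A functional alpha chain gene is built in the thymus by joining 1 variable segment (Trav) to 1 joining segment. The joined exon is spliced to the constant gene Trac, and the joining segment encodes the end of the hypervariable loop that contacts peptide and MHC. Joining at an allele can be repeated with segments farther 5′ in the variable cluster and farther 3′ in the joining cluster, and most T cells of a normal mouse differ in the segment they use. A prerearranged receptor transgene fixes the segment in the cells that express it, although joining at the endogenous alpha alleles is often not fully shut off.

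The 60 segments lie on the plus strand of chromosome 14 of GRCm38, from 54155005 to 54218842, between the delta constant gene Trdc and Trac (54220521 to 54224206). No other annotated gene overlapped any of them. They run from Traj61 at the 5′ end to Traj1 next to Trac, and their lengths were 29 to 72 bases with a median of 61. Joining segments are known for a Phe-Gly-X-Gly turn, which can be written in DNA as TTNGG followed by NNNN and GG, where N is any base. This string, searched on both strands, was in 46 of 60 segments on the coding strand (76.7%) and in 0 on the other strand. It was in 44 of the 51 genes (86.3%) and in 2 of the 9 pseudogenes (22.2%), against 2.98% of 32851 stretches of the same length as Traj43 (57 bases, 1 from each RefSeq GRCm38.p6 promoter window, either strand). A match describes the letters only.

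The sequences below, from the GENCODE M21 transcripts, are those on which the results turn: the leading segment Traj43 (chr14:54174742-54174798, ENSMUSG00000076887), the next segment by mean share Traj15 (chr14:54204422-54204481), Traj34 (chr14:54184699-54184756) and Traj48 (chr14:54169808-54169868), the highest segments of the library labelled TCR1640 male, and the segments of the invariant NKT and MAIT cell receptors, Traj18 (chr14:54200777-54200842) and Traj33 (chr14:54185358-54185414). Capitals mark the stretch that matches the string above, which Traj33 lacks.
Traj43: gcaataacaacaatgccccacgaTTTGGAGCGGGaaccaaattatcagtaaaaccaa
Traj15: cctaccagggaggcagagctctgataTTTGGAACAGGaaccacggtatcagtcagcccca
Traj34: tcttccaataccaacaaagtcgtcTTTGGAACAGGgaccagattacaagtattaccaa
Traj48: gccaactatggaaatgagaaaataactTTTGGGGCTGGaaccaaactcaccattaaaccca
Traj18: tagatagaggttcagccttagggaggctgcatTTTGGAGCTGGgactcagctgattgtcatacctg
Traj33: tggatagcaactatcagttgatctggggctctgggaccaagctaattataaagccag

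Traj43 shares only short stretches with the other segments. Its longest identical run with any other Traj segment was 9 bases, for example with Traj23 and with Traj48, partly within the capitals. No other GENCODE M21 gene held a stretch of 25 bases of Traj43 on either strand. Among all pairs of segments the longest shared run was 16 bases, in Traj53 and Traj45. These sequences are of the reference assembly, which comes from C57BL/6J mice, and whether SJL/J alleles differ in these segments was not tested.

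Traj segments go against the strain labels. A receptor transgene would narrow the segments in the cells that carry it, and the narrow set was in the libraries labelled SJL/J and the broad set in those labelled TCR1640. Every strain direction below is therefore between labels of libraries. With all 4 groups resting on these labels, no result between strain labels can be given without them. Results within a label are given for each label by itself. The column totals ran from 3765291 to 5116467 counts, and Traj segments took 1173 counts in all 8 columns together. The intervals here are at the 95% level and cover counting error only. Reads without molecular identifiers are not independent molecules, and no spread between mice was measured. Overlap of intervals is not a test of equality.

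Traj43 carried most of the Traj counts in the libraries labelled SJL/J and few in those labelled TCR1640. It had 167 and 176 counts in the SJL/J female columns and 161 and 178 in the SJL/J male columns. In the columns labelled TCR1640 it had 5 and 1 counts in females and 0 and 5 in males. The columns of the labels did not overlap. Scaled to library size as CPM (counts per 1000000 library counts), the summed levels of Traj43 were 40.9 in SJL/J females and 44.1 in SJL/J males, against 0.756 in TCR1640 females and 0.50 in TCR1640 males.

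As a share of Traj counts, Traj43 made up 76.3% and 74.9% in the SJL/J female columns and 78.2% and 80.2% in the SJL/J male columns. In TCR1640 columns the share was 7.58% and 1.89% in females, and 0% and 6.10% in males, where 0 of 90 counts allows a share of up to 3.33% at a floor of 3 counts (exact upper bound 4.02%). Within a label, the exact intervals of the summed female and male shares overlapped: 71.3% to 79.4% and 75.0% to 83.0% for SJL/J, and 1.87% to 10.7% and 0.95% to 6.65% for TCR1640. Such overlap is not a test of equality, and a sex difference in the share was not tested.

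**Figure D1:**
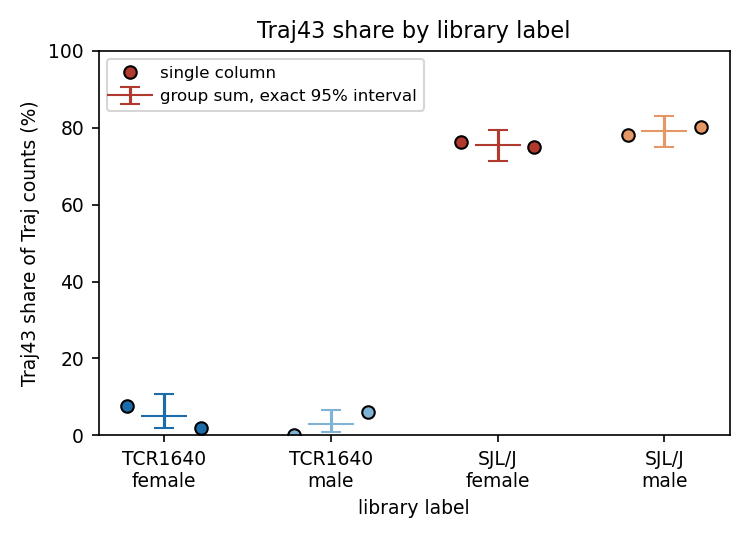
Share of Traj43 in all Traj counts (y axis, percent) for the 4 library labels (x axis). Points are single columns and horizontal marks are group sums with exact 95% binomial intervals for counting error. All SJL/J columns lie between 74.9% and 80.2%, and all TCR1640 columns at or below 7.58%.

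On library sizes scaled by TMM, a normalization on the bulk of genes, the level of Traj43 was 53.3-fold higher in the library labelled SJL/J than in that labelled TCR1640 in females (counting interval 24.2 to 146). In males it was 85.8-fold higher (36.4 to 266). These intervals overlap, and a difference between the sexes in this ratio was not tested. An additive edgeR model of strain label and sex over the 4 summed samples gave Traj43 a log2 change of -6.05 for TCR1640 over SJL/J (SE 0.27, Benjamini-Hochberg adjusted p = 5.79e-103), lower in 2 of 2 sexes. Its p rests on 1 residual degree of freedom with spread shared across genes, not on spread between mice. Of the 60 segments 1, Traj43, passed the filter on low counts, and it was called. In this fit 26.5% of the 17261 genes tested were called between strain labels. Traj43 passed the filter through the libraries where it is high, so the count of 1 is not support beyond its own value.

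Between sexes the same edgeR fit called 0 Traj segments, against 1.1% of all genes tested. Traj43 was the only segment it tested, so this count speaks of Traj43 alone. At an unadjusted p under 0.05 the number was also 0. DESeq2 called 0 of the 58 segments it tested, most of them thinly counted. Traj43 stood at 0.03 for males over females (SE 0.21, edgeR adjusted p = 0.989). Within labels its log2 ratio of males over females was 0.07 in SJL/J (counting interval -0.15 to 0.29). In TCR1640 it was -0.62, with an interval of -2.67 to 1.36 that rests on 5 and 6 counts.

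The other segments together stood at like levels under both labels in females. All segments but Traj43 had 61 and 52 counts in the TCR1640 female columns, 90 and 77 in the TCR1640 male columns, 52 and 59 in the SJL/J female columns and 45 and 44 in the SJL/J male columns. In CPM this was 14.2 in TCR1640 females and 16.7 in TCR1640 males, against 13.2 in SJL/J females and 11.6 in SJL/J males. In females the log2 ratio of TCR1640 over SJL/J was 0.13 (counting interval -0.26 to 0.52), with columns that overlap. In males it was 0.57 (0.19 to 0.96), with both TCR1640 columns (18.4 and 15 CPM) above both SJL/J columns (12 and 11.2).

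The lower sum of all Traj segments under TCR1640 came from Traj43. With Traj43 included, the log2 ratio of TCR1640 over SJL/J was -1.83 in females (-2.13 to -1.54) and -1.66 in males (-1.92 to -1.40). The sum without Traj43 went the other way in males, and in females its interval included equality. All Traj counts came to 54.2 and 55.7 CPM in SJL/J females and males and to 15 and 17.2 in TCR1640. Between sexes the sum of all segments stood at 0.00 in SJL/J (-0.19 to 0.20) and at 0.18 in TCR1640 (-0.17 to 0.53). Without Traj43 it stood at -0.23 (-0.65 to 0.18) and 0.21 (-0.14 to 0.57), and each of these 4 intervals includes equality. In bulk RNA, fewer cells with a segment and less RNA of it per cell cannot be told apart.

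**Figure D2:**
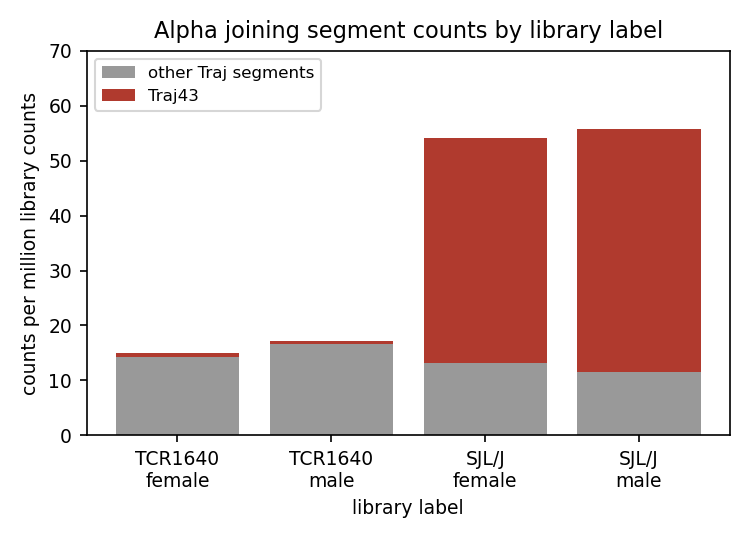
CPM (y axis) in Traj43 and in all other Traj segments, stacked, for the 4 library labels (x axis). The part from other segments runs from 11.6 to 16.7, and Traj43 adds 40.9 and 44.1 in the libraries labelled SJL/J.

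Levels per length gave the same picture, here in CPM divided by segment length in kilobases. Traj43 reached 718 and 775 in SJL/J females and males, and 13.3 and 8.77 in TCR1640 females and males. The other 43 genes that hold the motif stood at 4.29 and 3.6 under SJL/J and at 4.53 and 5.79 under TCR1640. The 9 pseudogenes stood at 2.13 and 1.74 under SJL/J and at 1.12 and 1.11 under TCR1640, from only 8, 6, 4 and 5 counts. Pseudogenes were thus also counted, in every group at a lower level per length than the genes that hold the motif. The 7 genes without the motif stood at 2.27 and 3.09 under SJL/J and at 4.19 and 2.14 under TCR1640. Of the pseudogene counts, Traj51 alone held 3 and 3 under SJL/J and 3 and 2 under TCR1640.

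Diversity followed the same split. The effective number of segments is the inverse of the summed squared shares and equals the number of segments when all are used equally. It was 1.75 in SJL/J females (counting interval 1.57 to 1.93) and 1.59 in SJL/J males (1.44 to 1.74). In TCR1640 it was 30.7 in females (24.8 to 36.7) and 29.3 in males (24.5 to 34.2). These observed values fall short when counts are few, and the intervals do not cover this shortfall. The inverse of an unbiased estimate of the summed squared shares gave 41.1 and 35.2 in TCR1640 females and males, and 1.75 and 1.59 in SJL/J. This inverse is not itself unbiased and has no interval here. Single columns gave 34.6 and 40.5 in TCR1640 females and 30.8 and 31.0 in TCR1640 males. The exponential of Shannon entropy, which weights rare segments more, was 36.1 and 34.8 in TCR1640 and 4.21 and 3.30 in SJL/J.

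The number of different segments seen depended on depth and on Traj43. At least 1 count was found for 44 segments in TCR1640 females, 43 in TCR1640 males, 49 in SJL/J females and 38 in SJL/J males. At a common total of 119 Traj counts, the expected numbers were 44.0 and 39.8 in TCR1640 females and males, and 22.2 and 18.1 in SJL/J. Without Traj43 and at a common total of 89 counts, they were 39.4, 35.8, 43.2 and 37.0 in TCR1640 females, TCR1640 males, SJL/J females and SJL/J males. The order of the labels seen with Traj43 was not present among the other segments.

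Among these other segments, the effective number was 30.0 in TCR1640 females (23.9 to 36.2), 28.4 in TCR1640 males (23.6 to 33.1), 27.9 in SJL/J females (20.5 to 35.4) and 18.7 in SJL/J males (11.7 to 25.7). The 4 intervals overlap, which is not a test of equality. The inverse of the unbiased estimate was 40.6 and 34.0 in TCR1640 females and males, 37.0 in SJL/J females and 23.4 in SJL/J males. The SJL/J male value was the lowest by each of these measures of evenness, and its columns, at 15.7 and 15.9, lay below the other 6, at 21.9 to 23.1. These columns held 44 and 45 counts against 52 to 90 in the others.

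**Figure D3:**
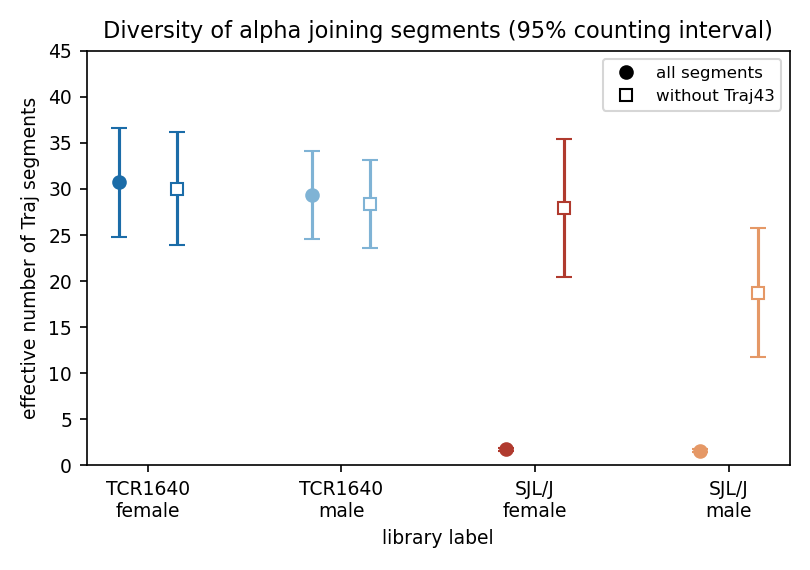
Effective number of Traj segments (y axis) for the 4 library labels (x axis), over all 60 segments (filled circles) and without Traj43 (open squares), with 95% intervals for counting error. Over all segments SJL/J stands at 1.75 and 1.59 against 30.7 and 29.3 in TCR1640, and without Traj43 all 4 intervals overlap.

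How far 2 columns differ in their segments was described by the share of counts that would have to move to make them alike. Over all segments this was 11.3% to 53.1% between the 2 columns of a group, 12% to 53.1% between sexes of a label, and 76.6% to 88.5% between labels. Without Traj43 the ranges were 46.6% to 52.6%, 46.0% to 59.4% and 48.1% to 66.4%. For single columns, the distance between labels overlapped with the distance between columns of a group once Traj43 was left out. In the summed groups without Traj43, the distance was 36.77% between sexes of TCR1640 and 43.29% between sexes of SJL/J. All distances between labels were larger, at 45.02% to 49.01%. Spearman correlations of the shares of these segments were 0.611 within TCR1640 and 0.412 within SJL/J, against 0.302 to 0.374 between labels. These differences were not tested against counting error.

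The other segments were thinly counted. Over the 8 columns 25 of the 60 segments reached 10 counts, 35 did not, and Traj60 and Traj1, both pseudogenes, had 0. At least 1 count was seen in all 4 groups for 26 segments, in 3 groups for 14, in 2 groups for 10 and in 1 group for 8. In SJL/J labels only, 9 segments had counts, among them the pseudogenes Traj61, Traj55, Traj54, Traj36 and Traj8. In TCR1640 labels only, 2 had, Traj47 and the pseudogene Traj14. The highest sum among these segments was 4 counts, for Traj29 and Traj14, too few to tell the labels apart. The share of all genes seen under 1 label only was not worked out.

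Traj15 led the other segments by mean share and in both libraries labelled SJL/J. It had 2 and 8 counts in the SJL/J female columns and 7 and 7 in the SJL/J male columns. It had 2 and 2 in TCR1640 females and 4 and 4 in TCR1640 males. Of all counts outside Traj43 it took 9.01% and 15.7% in SJL/J females and males, and 3.54% and 4.79% in TCR1640. Its log2 ratios of TCR1640 over SJL/J were -1.22 in females (-3.35 to 0.57) and -1.15 in males (-2.61 to 0.21), with intervals that include equality.

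In the library labelled TCR1640 male, Traj34 and Traj48 were the highest, with 12 counts each, 6.98% of Traj counts. Traj34 had 9 and 3 counts in the TCR1640 male columns, 3 and 2 in TCR1640 females, 1 and 0 in SJL/J females and 1 and 0 in SJL/J males. Traj48 had 8 and 4 in TCR1640 males, 2 and 1 in TCR1640 females, 1 and 0 in SJL/J females and 0 and 0 in SJL/J males. For Traj34 every TCR1640 column was above every SJL/J column, and for Traj48 1 TCR1640 female column and 1 SJL/J female column tied at 1 count. In males, Traj34 was 9.48-fold higher under TCR1640 on TMM-scaled library sizes, with a counting interval of 1.40 to 405 that rests on 12 counts against 1. Traj48 was 3.16-fold higher when the 0 counts of the SJL/J group were set at a floor of 3 counts. This value takes no account of the counting error of its own 12 counts.

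Segments were also held to a rule of size, at least 2-fold with a counting interval that excludes equality, among those with at least 10 counts over the 2 groups. In females 5 segments could be compared between labels, and 1, Traj43, was lower in TCR1640, where 5.67% of all genes compared were lower. None was higher, against 4.31% of all genes (9.98% in either direction). In males 6 could be compared, 1 was lower (Traj43, against 6.92% of all genes) and 2 were higher (Traj34 and Traj48, against 5.59%), where 12.5% of all genes passed in either direction. Between sexes 0 of 8 segments passed in TCR1640, where 1.29% of all genes were higher in males and 2.4% lower (3.69% in all). In SJL/J 0 of 3 passed, where 1.32% were higher and 1.85% lower (3.17% in all). Traj43, Traj34 and Traj48 each reached 10 counts through the library where they are high, so these counts are a description only. With 0 counts in SJL/J males, Traj48 has no interval and was held to the rule at the floor of 3 counts, as were all genes at 0 in 1 group.

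The remaining leading segments had a low and broad pattern. They were ranked by mean share of all Traj counts. Traj43 lowers every other share under SJL/J, so this ranking favours segments with more counts under TCR1640. Traj37, with 8 and 3 counts in SJL/J females and males against 2 and 1 in TCR1640, was not among those named. The directions below are therefore a description only. Traj39 had 9 counts in TCR1640 females and 6 in TCR1640 males, against 3 and 6 in SJL/J females and males. Traj17 had 6 and 4 against 1 and 1, Traj26 had 5 and 4 against 1 and 1, and Traj2 had 5 and 4 against 2 and 1. Traj27, Traj11, Traj40 and Traj31 had 3 to 7 counts in TCR1640 groups and 1 to 7 in SJL/J groups. The highest of these shares, that of Traj39 in TCR1640 females, was 7.56% of Traj counts. The segments next to Traj43 on the locus were not raised with it under the SJL/J labels: Traj44 had 1 and 0 counts in SJL/J females and males, and Traj42 likewise had 1 and 0.

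**Figure D4:**
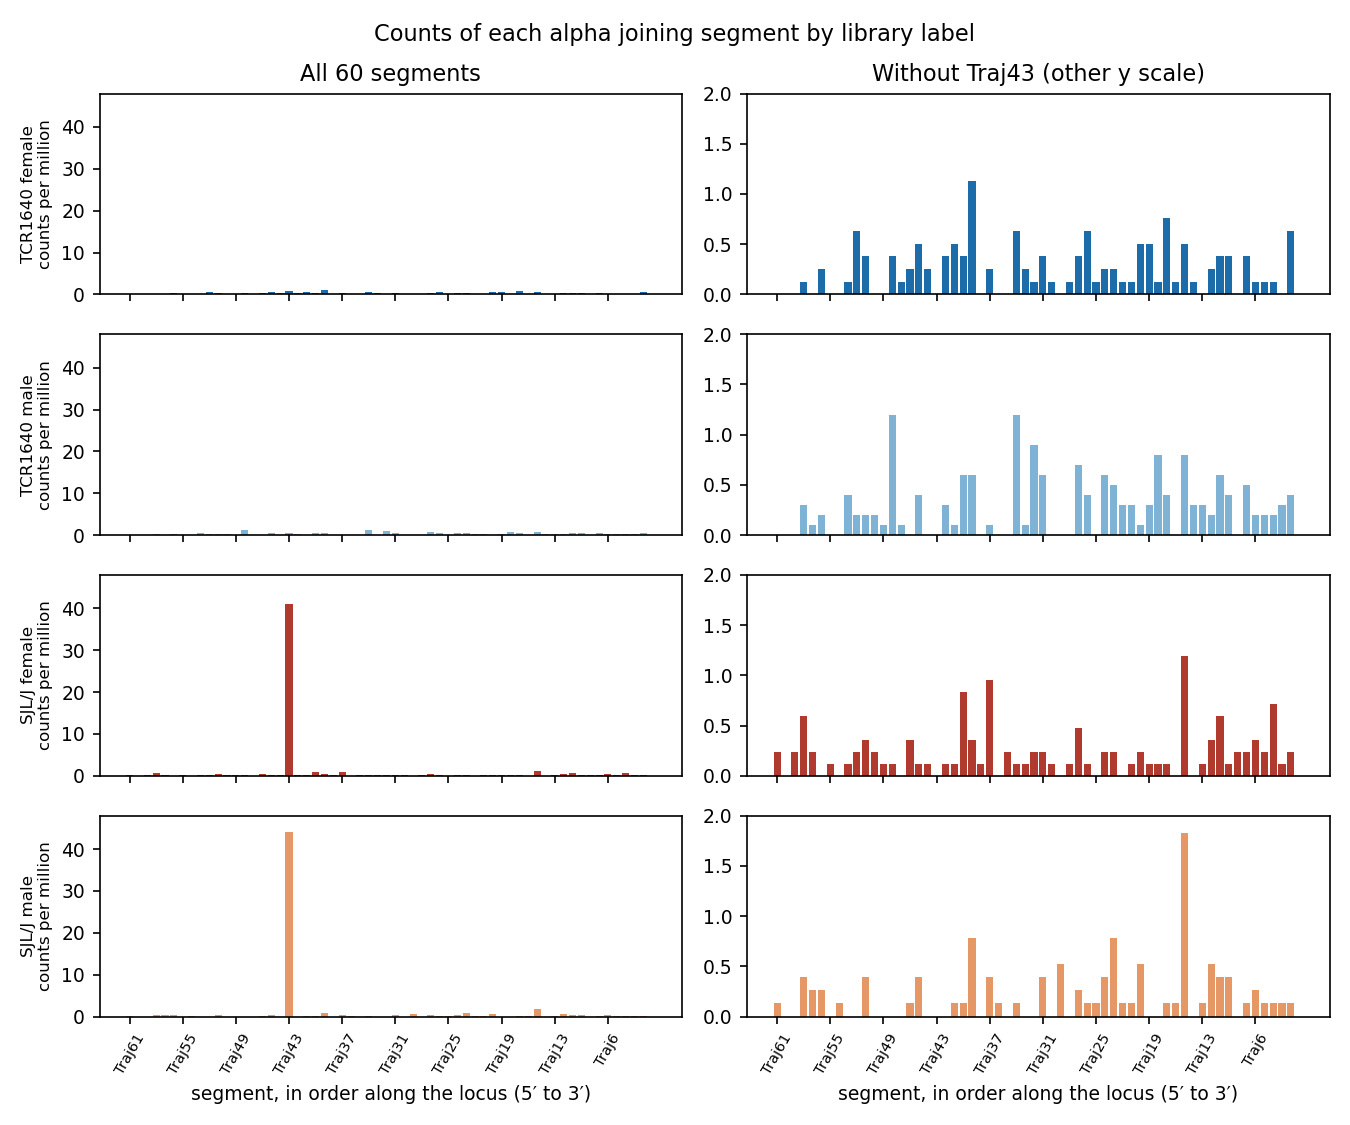
CPM (y axis) of each Traj segment in its order along the locus (x axis), 1 row per library label. The left column holds all 60 segments and the right column leaves out Traj43 on another scale. Traj43 stands at 40.9 and 44.1 in the SJL/J rows, and in the right column no segment exceeds 1.82 (Traj15, SJL/J male).

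Along the locus, counts outside Traj43 were spread over the whole cluster. The 60 segments were divided in order into 4 blocks of 15. The block next to Trac, Traj16 to Traj1, held 34.2% of these counts in SJL/J females (25.5 to 43.8) and 37.1% in SJL/J males (27.1 to 48). In TCR1640 it held 22.1% in females (14.9 to 30.9) and 26.3% in males (19.8 to 33.7). The 5′ block, Traj61 to Traj47, held 14.2% and 18.0% in TCR1640 females and males, and 19.8% and 13.5% in SJL/J. The block Traj46 to Traj32 held 32.7% and 25.7% in TCR1640 females and males, and 28.8% and 19.1% in SJL/J. The block Traj31 to Traj17 held 31.0% (22.6 to 40.4) in TCR1640 females against 17.1% (10.6 to 25.4) in SJL/J females, and 29.9% against 30.3% in males. Within each sex, the intervals of the labels overlapped in all 4 blocks, and the differences were not tested.

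Of the segments of the invariant receptors, Traj18 was counted mainly in the library labelled TCR1640 male, and Traj33 was near 0 in all libraries. Traj18, which with Trav11 forms the alpha chain of invariant NKT cells, had 1 and 0 counts in TCR1640 female columns, 4 and 4 in TCR1640 males, 0 and 1 in SJL/J females and 0 and 0 in SJL/J males. In TCR1640 males this was 4.65% of Traj counts (2.03 to 8.96), as many counts as Traj15 had there, and Trav11 had 0 in both columns. Trav11 had 0 or 1 counts in every other column. Zbtb16, the transcription factor PLZF of NKT and other innate-like cells, was higher under SJL/J, with 0.378 and 0.400 CPM in TCR1640 females and males and 2.75 and 3.78 in SJL/J. Traj33, which with Trav1 forms the alpha chain of MAIT cells, had at most 1 count in any column. For SJL/J males, 0 of 428 counts allows a share of up to 0.701% for either segment at a floor of 3 counts (exact upper bound 0.858%).

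The constant gene that the joined exon is spliced to moved far less than Traj43. Trac had 474 and 425 counts in TCR1640 females, 595 and 704 in TCR1640 males, 553 and 604 in SJL/J females and 626 and 733 in SJL/J males. Its log2 change for TCR1640 over SJL/J was -0.33 (SE 0.13, edgeR adjusted p = 0.0317), while the beta constant genes rose, Trbc1 by 0.35 (SE 0.13, adjusted p = 0.0257) and Trbc2 by 0.53 (SE 0.13, adjusted p = 0.000244). Of the 7 genes of the receptor complex, which also hold the CD3 chains Cd3e, Cd3d and Cd3g and the zeta chain Cd247, 5 rose, 1 (Trac) fell and 1 (Cd247) did not pass, where 26.5% of all genes tested passed (2305 higher and 2267 lower). Their median change was 0.40, against 0.01 over all genes tested. Of 3 genes of proximal signalling Lat rose, by 0.43, and Lck (0.17) and Zap70 (-0.18) did not pass. Of the recombination genes, Rag1 and Rag2 had at most 2 counts in a column, and Dntt, the enzyme that adds bases at the joins, rose by 0.94 (SE 0.31, adjusted p = 0.0133).

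Variable segments were also fewer in effective number under SJL/J. Over 128 Trav segments the effective number was 59.5 and 61.0 in TCR1640 females and males, and 21.6 and 18.6 in SJL/J. Over 35 beta variable segments (Trbv) it was 7.80 and 7.42 in TCR1640 and 2.75 and 2.37 in SJL/J, where Trbv2 took 58.3% and 63.1%. Over 14 beta joining segments (Trbj) it was 8.08 (6.21 to 9.95) and 10.6 (8.61 to 12.6) in TCR1640, and 5.93 (4.52 to 7.34) and 7.81 (6.25 to 9.36) in SJL/J, with intervals that overlap between labels in both sexes. The leading beta joining segment under SJL/J was Trbj2-1, with 32.3% in females (24.1 to 41.2) and 22.7% in males (15.3 to 31.7). The leading alpha variable segment under SJL/J was Trav12-3, with 11.0% in females (9.13 to 13.1) and 16.1% in males (13.9 to 18.5). The intervals of Trbj2-1 and of Trav12-3 lie below those of the Traj43 share. Families differ in the number and similarity of their segments, and the effective numbers were not tested against each other.

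Markers of cell types moved with the Traj43 split, and their part in it was not tested. The 10 T cell genes summed to 1977 to 2210 CPM in TCR1640 columns and 1599 to 1819 in SJL/J columns, with 5 higher in TCR1640, 2 lower (Trac and Cd4) and 3 that did not pass. For these and the following lists, the share over all genes in the same fit was 26.5%. The CD8 genes moved most among them: Cd8a, the alpha chain of the coreceptor of cytotoxic T cells, stood at 153 and 170 CPM in TCR1640 females and males and at 23.0 and 28.3 in SJL/J, a log2 change of 2.69 (SE 0.14, edgeR adjusted p = 5.57e-75). Cd8b1 rose likewise, by 2.39, and Cd4, the coreceptor of helper T cells, fell by 0.52 (SE 0.12, edgeR adjusted p = 0.000191). Libraries high in Traj43 were thus low in CD8 transcripts. The defining genes Cd3e, Cd3d and Cd3g were present in every column. The 4 gamma-delta T cell genes summed to 7.82 to 11.1 against 37.2 to 47.4, and both members that could be tested, Trdc and Tcrg-C1, were lower in TCR1640. Trdc lies beside the Traj cluster and stood at 9.70 and 7.60 CPM in TCR1640 females and males, against 42.7 and 33.6 in SJL/J.

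Other lists were smaller or mixed. The 4 NKT cell genes summed to 0.493 to 0.977 in TCR1640 columns and 2.93 to 4.09 in SJL/J columns. The SJL/J sums were nearly all from Zbtb16, which other innate-like cells also express, and do not measure NKT cells. Klrb1c had 1, 0, 2 and 2 counts in the TCR1640 columns and 0, 1, 0 and 0 in the SJL/J columns. Trav11 and Trav11d had at most 1 count in a column. Of the 2 genes listed for MAIT cells Trav1 had at most 2 counts in a column. The sum of that list, 13.7 to 18.0 against 6.39 to 9.03, was nearly all from Mr1, an antigen-presenting molecule made by many cell types, and does not measure MAIT cells. The 4 thymocyte genes summed to 5.67 to 7.23 against 3.07 to 5.14, nearly all from Dntt, and Ptcra had at most 1 count. The 4 B cell genes summed to 31.8 to 36.7 against 17.1 to 22.2, with 2 higher in TCR1640. The 4 myeloid genes summed to 124 to 138 against 129 to 152, mostly from Csf1r, which stood at 116 to 132 CPM in each group and did not pass. Of the others 2 were lower in TCR1640 (Lyz2 and S100a8), and S100a8 was at 0 in all TCR1640 columns. Itgam went the other way, at 3.40 and 2.20 CPM in TCR1640 females and males against 1.19 and 1.43 in SJL/J, and did not pass.

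The strand on which reads were counted is in doubt for these libraries. Over 902 pairs of a coding gene and a noncoding gene that overlap on opposite strands (at least 200 counts each and 100 shared exon bases), the noncoding gene had the higher count in 77.6% (74.7 to 80.3). The minimum of 200 counts favours pairs with a well-counted noncoding gene, and the share at a correct setting was not worked out. The interval treats pairs as independent, also where they share a gene. No annotated gene lies opposite a Traj segment, so no such pair exists for Traj segments. If the strand setting was reversed, the Traj counts would come only from reads off the coding strand, and their number would understate the RNA. The same doubt holds for the levels of the receptor and marker genes above. Whether this touches segments or genes unequally was not tested.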

How the data were processed

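Gene expression was measured by RNA sequencing in 8 libraries of 4 groups, taken from the sample titles. The deposited values are raw counts for each Ensembl identifier. Libraries were made with a KAPA stranded mRNA kit from 500 ng of RNA, per the labels' protocols. Tools listed in the submitters' processing notes are bcl2fastq 2.17, Bowtie2 and HTSeq, with the build mm10. Not given in the sources used here were the annotation release, strand setting, read length and handling of reads that span segment joins. Whether reads across these joins were lost was not tested.

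Symbols and positions came from GENCODE M21 (GRCm38), in which 233 identifiers were not found. The columns of a group were compared by chi-square, whose value per degree of freedom was 1.05 to 1.08 over genes with at least 20 counts (1.34 to 2.44 with Gm43333), against 3.12 to 17.1 between groups, and were summed. Members, lists and tests were chosen with earlier results of these data known.

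Shares have exact Clopper-Pearson 95% intervals, effective numbers delta-method intervals, and ratios exact conditional binomial intervals on TMM-scaled sizes. The additive fit (strain label and sex, 1 residual degree of freedom) used edgeR 4.0.16 in R 4.3.3 with TMM, filterByExpr and the quasi-likelihood F test, two-sided, at a Benjamini-Hochberg adjusted p of 0.05 over all genes. Standard errors were taken as log2 change divided by root F. DESeq2 1.42.0 was an alternative. Named were the 12 segments with the largest mean share, Traj18, Traj33 and the neighbours of Traj43.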

Additional observations from a re-analysis of the deposited data

How the results depend on the processing

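Of the alternative values for shares, effective numbers, ratios and counts of calls, 91 stayed within the counting interval of the reported value or gave the same count. Another 15 moved outside that interval and 2 changed sign. Traj43 was called lower in TCR1640 in all 14 alternative fits, at -6.58 to -5.59 (edgeR or DESeq2 adjusted p from 1.61e-185 to 2.11e-08). The replicate numbers marked no shared source and same-numbered columns did not deviate together (correlations from -0.02 to 0.03). With the 8 columns as samples, edgeR called 1 Traj segment between labels and 0 between sexes, with or without the replicate block. Traj43 was the only segment tested there and in most other fits, so the counts of calls mostly repeat its own value.

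Leaving out Traj43 turned the log2 ratio of the Traj sum to 0.13 in females, with an interval that includes equality, and to 0.57 in males. It moved the sex ratio under SJL/J to -0.23. With the inverse of the unbiased estimate, the effective number moved to 41.1 and 35.2 in TCR1640 females and males. Without Traj43 it moved to 40.6 and 34.0 there, and to 37.0 in SJL/J females. Leaving out either column gave 22.9 to 23.2 and 22.7 to 23.1 in TCR1640 females and males, and 22.5 to 22.6 and 21.9 to 23.1 without Traj43. The Traj43 share ran from 0% to 6.10% in TCR1640 males.

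Over all genes, the edgeR fit called 4572 between labels and 190 between sexes, DESeq2 1351 and 6, and the 8-column fit 7821 and 2759. The sex count was 108 with upper-quartile factors and 118 with no filter on low counts. It was 123, 45, 96 and 8 without TCR1640 female 1, female 2, male 1 and male 2, and 22, 81 and 53 without SJL/J female 2, male 1 and male 2. The causes were not tested. Low counts limit every segment but Traj43.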
